A study of Homo sapiens with 4 samples.

Results

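RET, its fusion partner gene CCDC6, and 8 adaptor, phosphatase and ubiquitin ligase genes were followed between 6 h and 24 h of RET inhibition in TPC1 cells. The 8 genes act on or downstream of activated RET. These 10 genes (RET, CCDC6, SHC1, GRB2, GAB1, GAB2, PTPN11, DOK1, CBL, and CBLB) were found by exact symbol among the 20372 genes of the count table, and all 10 had enough reads to be tested. TPC1, an established line from a human papillary thyroid carcinoma, carries a CCDC6-RET rearrangement. RNA was sequenced from TPC1 cells treated with the RET inhibitor BLU6864 for 6 h or for 24 h, with 2 libraries at each time, grown in the same serum-containing medium. Both groups carry the fusion and both received the inhibitor, at a dose that the labels give as 100 µM and the methods as 100 nM. Libraries without inhibitor were not analysed here, so that the effects of the inhibitor and of time in culture cannot be told apart. The labels call both 24 h libraries, but not the 6 h libraries, a re-analysis. Any difference in origin or processing that this label marks cannot be told apart from time. The labels do not say whether the libraries of a time came from separate cultures. P values thus measure the spread between these libraries, which may be technical.

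RET is a receptor tyrosine kinase that is normally switched on by ligands of the GDNF family bound to GFRA co-receptors. In the CCDC6-RET rearrangement, the start of CCDC6, with its promoter and a coiled-coil region, is joined to the kinase part of RET, so that the fusion protein pairs with itself and signals without ligand. Phosphorylated tyrosines in the tail of RET recruit the adaptors SHC1 and GRB2, which lead to RAS and ERK, and DOK1, which dampens RAS signaling. The docking proteins GAB1 and GAB2 gather PI3-kinase and the phosphatase SHP2 (PTPN11), and CBL and CBLB attach ubiquitin to active receptors. RET fusions are a known driver of papillary thyroid carcinoma.

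Because the CCDC6 promoter stands in front of RET sequence in the fusion, the letters before the CCDC6 and RET start sites are shown together. Those of SHC1, the most abundant gene that rose, and of GAB2, the gene that fell, are shown for comparison. The set of RefSeq promoters used here, of build GRCh38.p14, had entries for 7 of the 10 genes and none for GAB1, PTPN11, and CBL. Each sequence is the 250 bases before the first start listed for the gene, 5′ to 3′. Capitals mark GC boxes (GGGCGG) and CCAAT boxes (CCAAT) on either strand, and neighbouring matches may share letters.
CCDC6, chr10:59906557-59906806, minus strand: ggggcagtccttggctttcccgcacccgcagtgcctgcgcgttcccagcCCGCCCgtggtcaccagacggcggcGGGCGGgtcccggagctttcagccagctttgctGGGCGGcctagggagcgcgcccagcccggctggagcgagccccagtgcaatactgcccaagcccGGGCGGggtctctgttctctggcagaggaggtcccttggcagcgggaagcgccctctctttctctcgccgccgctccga
RET, chr10:43076819-43077068, plus strand: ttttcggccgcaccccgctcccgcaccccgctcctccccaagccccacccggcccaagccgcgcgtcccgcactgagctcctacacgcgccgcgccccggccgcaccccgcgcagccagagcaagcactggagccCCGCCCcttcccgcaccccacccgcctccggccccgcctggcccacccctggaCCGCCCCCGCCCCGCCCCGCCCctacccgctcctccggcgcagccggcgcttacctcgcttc
SHC1, chr1:154974377-154974626, minus strand: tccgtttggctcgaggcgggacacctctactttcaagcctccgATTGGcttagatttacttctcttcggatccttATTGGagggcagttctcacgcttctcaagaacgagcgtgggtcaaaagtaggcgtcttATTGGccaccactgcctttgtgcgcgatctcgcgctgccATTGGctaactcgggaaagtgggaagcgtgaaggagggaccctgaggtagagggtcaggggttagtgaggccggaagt
GAB2, chr11:78417821-78418070, minus strand: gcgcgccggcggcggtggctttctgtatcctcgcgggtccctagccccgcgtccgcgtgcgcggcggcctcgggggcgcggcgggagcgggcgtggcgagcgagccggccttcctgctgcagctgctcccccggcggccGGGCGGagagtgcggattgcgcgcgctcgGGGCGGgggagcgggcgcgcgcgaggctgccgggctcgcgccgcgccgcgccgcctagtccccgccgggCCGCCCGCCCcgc

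The CCDC6 stretch was 71.6% G or C and held 4 GC boxes, and that of RET was 79.6% G or C and held 5. GAB2 had 4 GC boxes in 84.0% G or C, whereas SHC1 had 0 GC boxes and 4 CCAAT boxes in 55.2% G or C. Over 35114 promoters of the same length, 42.6% held a GC box and 32.0% a CCAAT box. A TATA box (TATAAA, in 10.7% of promoters), an AP-1 motif (TGANTCA, in 6.57%), and a cyclic AMP response element (TGACGTCA, in 1.65%) had 0 matches in these 4 stretches. These counts hold for the first listed start alone. The second start of SHC1 had 2 GC boxes, 1 CCAAT box, and 1 AP-1 motif in 61.6% G or C, that of GAB2 had 0 GC boxes in 41.2%, and that of RET had 1 GC box in 58.0%. CBLB, which also rose, had 1 GC box and 0 CCAAT boxes at its first start. Its second start had 5 GC boxes and 3 CCAAT boxes, and its further starts had 0 of either. A link between these letters and the changes was not tested. Which start sites are used in TPC1 cells was not tested, and the matches are letters, not sites.

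Total counts lay between 23917056 and 27457040 per library, of which the 10 genes took between 19513 and 27541. Across genes, Spearman correlations were 0.998 between libraries of one time and at most 0.941 between times. Of the thyroid follicular markers, PAX8 had at least 19124 counts in every library and FOXE1, HHEX, and TG were also counted, whereas NKX2-1 and TSHR had 0 counts in every library and SLC5A5 at most 7. Of 6 epithelial markers, KRT7, KRT8, KRT18, and KRT19 were counted and EPCAM and CDH1 had at most 11 counts. The summed normalized counts were between 21347 and 22752 at 6 h and between 20707 and 21877 at 24 h for the thyroid list, and between 2982 and 3115 at 6 h and between 3333 and 3352 at 24 h for the epithelial list. Most of the thyroid sum was PAX8, and members of both lists moved in opposite directions. TG fell (log2 fold change -1.09, adjusted P = 2.77e-07) and FOXE1 rose (0.84, adjusted P = 1.37e-07), while KRT19 fell (-1.59, adjusted P = 9.57e-08) and KRT7 rose (0.84, adjusted P = 4.49e-07). The 6 white blood cell markers had at most 5 counts in any library, and of 2 endothelial markers CDH5 had at most 1 and VWF between 3 and 16, with a log2 fold change of -1.77 (adjusted P = 0.00710). The part of these shifts in the results was not tested. In bulk RNA, fewer cells with a transcript and less of it per cell cannot be told apart.

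Between 6 h and 24 h, CBLB, SHC1, and PTPN11 rose and GAB2 fell, whereas RET, CCDC6, GRB2, GAB1, DOK1, and CBL did not pass the test. At an adjusted P under 0.05 (quasi-likelihood test of edgeR, Benjamini-Hochberg adjustment over 12876 genes), 3 of the 10 genes were higher and 1 was lower. By this rule 33.0% of all genes tested were higher, 32.6% lower, and 65.6% one or the other, so the number of rises is near the background. The median log2 fold change was -0.056 over the 10 genes and 0.0029 over all genes tested, and the median of the absolute changes was 0.17 against 0.37. With the cutoffs of the methods turned to each direction, a log2 fold change past 0.5 and an unadjusted P under 0.01, CBLB and SHC1 remained higher and GAB2 lower, against 17.4% and 17.7% of all genes. The libraries of the times did not overlap in 7 of the 10 genes, 3 with both 24 h libraries above and 4 with both below, whereas 81.8% of all genes did not overlap (41.0% above and 40.8% below). To obtain normalized counts, each raw count was divided by the effective (TMM) library size, relative to the mean over libraries. Log2 fold changes are positive where 24 h was higher.

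**Figure D1:**
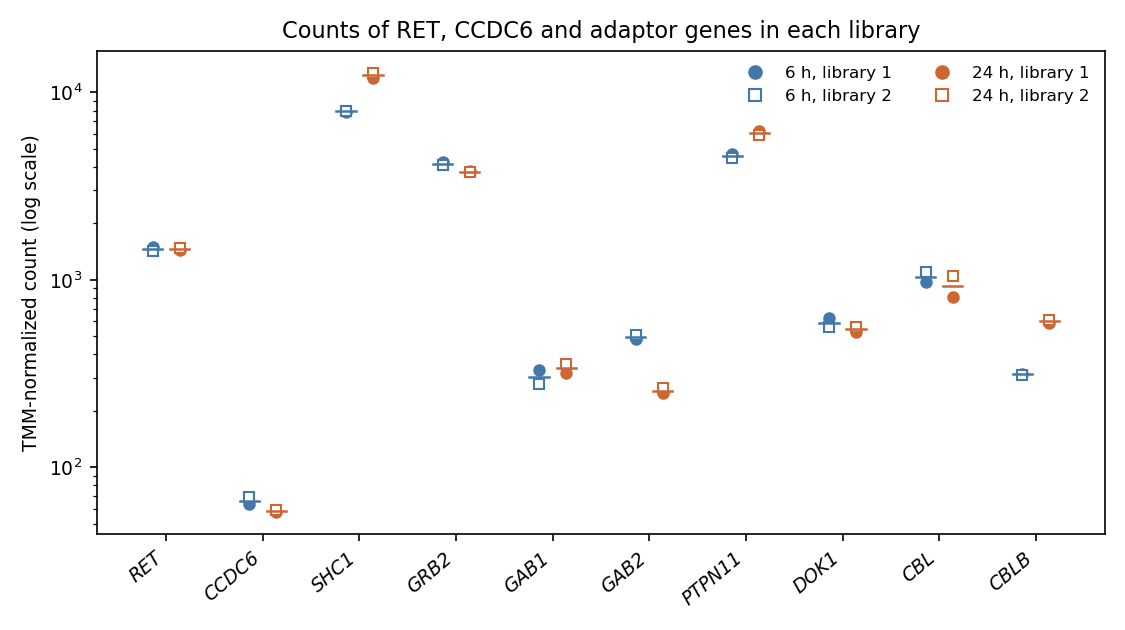
TMM-normalized counts (log axis) of the 10 genes in each library, with 6 h in blue and 24 h in orange, circles for library 1, open squares for library 2, and a line at the mean of each time. SHC1 lies highest, CCDC6 lowest near 60 counts, and the RET points of both times lie side by side between 1420 and 1497.

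RET (ENSG00000165731), on chromosome 10 of hg19 from 43572475 to 43625799, did not pass the test, and its change was bounded narrowly. At 6 h it had 1497 and 1420 normalized counts, and after 24 h 1449 and 1481, so that both 24 h values lay between the 6 h values. The 6 h mean was 1459 ± 54.7 (SD, n = 2) and the 24 h mean 1465 ± 23.0. RET thus had a log2 fold change of 0.0068 (SE 0.071, adjusted P = 0.937). The 95% interval of the change ran from 0.908-fold to 1.11-fold. The table holds 1 count per gene, so reads on the kinase part that the fusion keeps and on the part it lacks were not separated. The absolute change of RET was at the 0.916 percentile of all genes tested.

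CCDC6 (ENSG00000108091), on chromosome 10 from 61548521 to 61666414, encodes a coiled-coil protein and lends its promoter to the fusion. It was counted at a level far below RET, with 63.7 and 69.1 normalized counts at 6 h and 57.8 and 59.4 at 24 h. Both 24 h libraries were below both 6 h libraries, by less than the error of the test, with a log2 fold change of -0.18 (SE 0.20, adjusted P = 0.437). It rested on 59 and 72 raw reads at 6 h and on 58 and 61 at 24 h, and the 95% interval was wide, from 0.661-fold to 1.17-fold.

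The ratio of RET to CCDC6 within a library does not depend on how libraries are scaled. There were 23.5 and 20.6 RET reads for each CCDC6 read at 6 h and 25.1 and 25.0 at 24 h. On the log2 scale the 6 h ratio was 4.46 ± 0.14 (SD, n = 2) and the 24 h ratio 4.64 ± 0.0048, which differ by 0.19. A two-sided exact permutation test gave P = 0.333, the smallest that 2 libraries against 2 can give. Per kb of annotated exon, RET exceeded CCDC6 between 16.6-fold and 20.3-fold in the 4 libraries. CCDC6 was set beside 14 other genes known as RET fusion partners for which an exon length was found. Among these it had the lowest count per kb, 8.60, with HOOK3 next at 55.9 and TBL1XR1 highest at 845. No exon length was found for the partner NCOA4, so it has no rank here. Its mean normalized count was 24136, against 9895 for TBL1XR1. CCDC6 stood at the 9.65 percentile of all genes tested per kb and RET at the 54.3 percentile. These levels divide all reads of a gene by its full exon length. The fusion keeps only a part of CCDC6 and of RET, and reads of the fusion transcript were not separated from others. The rank of CCDC6 is therefore not a measure of promoter output, and rearrangement of the other partners was not tested.

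SHC1 (ENSG00000160691), on chromosome 1 from 154934774 to 154946871, encodes the adaptor that binds phosphorylated RET and passes the signal to GRB2. It rose from 7834 and 8002 normalized counts at 6 h to 11883 and 12734 at 24 h, with no overlap. The means were 7918 ± 119 (SD, n = 2) and 12308 ± 602, a log2 fold change of 0.64 (SE 0.075, adjusted P = 3.55e-08), which is 1.55-fold. The annotated positions of SHC1 share 1556 bp with PYGO2, whose log2 fold change was 0.12 (adjusted P = 0.129). PYGO2 had at most 1833 reads in a library, against at least 7257 of SHC1.

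GRB2 (ENSG00000177885), on chromosome 17 from 73314157 to 73401790, encodes the adaptor that brings the RAS activator SOS to the receptor. Its counts were 4242 and 4094 at 6 h and 3785 and 3769 at 24 h, both 24 h libraries being lower. The log2 fold change of -0.14 (SE 0.070) missed the threshold with an adjusted P of 0.0772, and the 95% interval of the log2 fold change ran from -0.29 to 0.0020. It passed with scaling by library size alone (-0.18, adjusted P = 0.0242). Over all settings that kept the 4 libraries, its adjusted P lay between 0.0242 and 0.138.

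DOK1 (ENSG00000115325), on chromosome 2 from 74776153 to 74784681, encodes a docking protein that binds the same RET tyrosine region as SHC1 and dampens RAS signaling. It had 623 and 561 normalized counts at 6 h and 528 and 561 at 24 h, so that one library of each time had almost the same value. The log2 fold change was -0.12 (SE 0.091, adjusted P = 0.254), with a 95% interval from 0.809-fold to 1.05-fold. LOXL3 overlaps 6665 bp of DOK1 but had at most 21 reads in a library.

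Of the docking genes, GAB2 fell and GAB1 did not pass the test. GAB2 (ENSG00000033327), on chromosome 11 from 77926343 to 78129394, fell from 483 and 508 normalized counts at 6 h to 248 and 264 at 24 h. The means were 496 ± 18.3 (SD, n = 2) and 256 ± 11.1, a log2 fold change of -0.95 (SE 0.10, adjusted P = 5.84e-09), which is 1.94-fold lower. Its absolute change was at the 83.2 percentile of all genes tested. GAB1 (ENSG00000109458), on chromosome 4 from 144257915 to 144395721, had 332 and 277 normalized counts at 6 h and 320 and 355 at 24 h. The libraries overlapped, and its log2 fold change was 0.15 (SE 0.11, adjusted P = 0.241), with an interval from 0.946-fold to 1.30-fold. At 6 h there were 0.689 and 0.545 GAB1 reads for each GAB2 read, and at 24 h there were 1.29 and 1.35. The log2 ratio was higher by 1.10 at 24 h, with P = 0.333 from the exact permutation test, the smallest it can give.

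PTPN11 (ENSG00000179295), on chromosome 12 from 112856155 to 112947717, encodes SHP2, the phosphatase that GAB proteins bind and that carries signals to RAS. It rose from 4697 and 4467 normalized counts at 6 h to 6193 and 5924 at 24 h, with no overlap. The means were 4582 ± 163 (SD, n = 2) and 6058 ± 191, a log2 fold change of 0.40 (SE 0.072, adjusted P = 2.05e-05). This 1.32-fold change is under the size cutoff of the methods. RPL6 overlaps 488 bp of PTPN11 and had a log2 fold change of 0.16 (adjusted P = 0.0726), from 6409 to 8627 reads in a library.

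Of the ubiquitin ligase genes, CBLB rose and CBL did not pass the test. CBLB (ENSG00000114423), on chromosome 3 from 105374305 to 105588396, rose from 316 and 311 normalized counts at 6 h to 589 and 612 at 24 h. The means were 314 ± 3.86 (SD, n = 2) and 600.5 ± 16.5, a log2 fold change of 0.94 (SE 0.095, adjusted P = 2.29e-09), which is 1.92-fold and the largest rise of the 10 genes. CBL (ENSG00000110395), on chromosome 11 from 119076752 to 119178859, had 976 and 1100 normalized counts at 6 h and 810 and 1043 at 24 h. The times overlapped, and at each time the library numbered 1 was the lower one. The log2 fold change of CBL was -0.16 (SE 0.095, adjusted P = 0.129), with an interval from 0.779-fold to 1.02-fold. It rests on single libraries, being 0.013 without 24 h library 1 (adjusted P = 0.919) and -0.35 without 24 h library 2 (adjusted P = 0.00355). There were 0.324 and 0.282 CBLB reads for each CBL read at 6 h and 0.727 and 0.587 at 24 h. The log2 ratio of CBLB to CBL was thus higher by 1.11, with P = 0.333 from the exact permutation test, again the smallest possible.

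**Figure D2:**
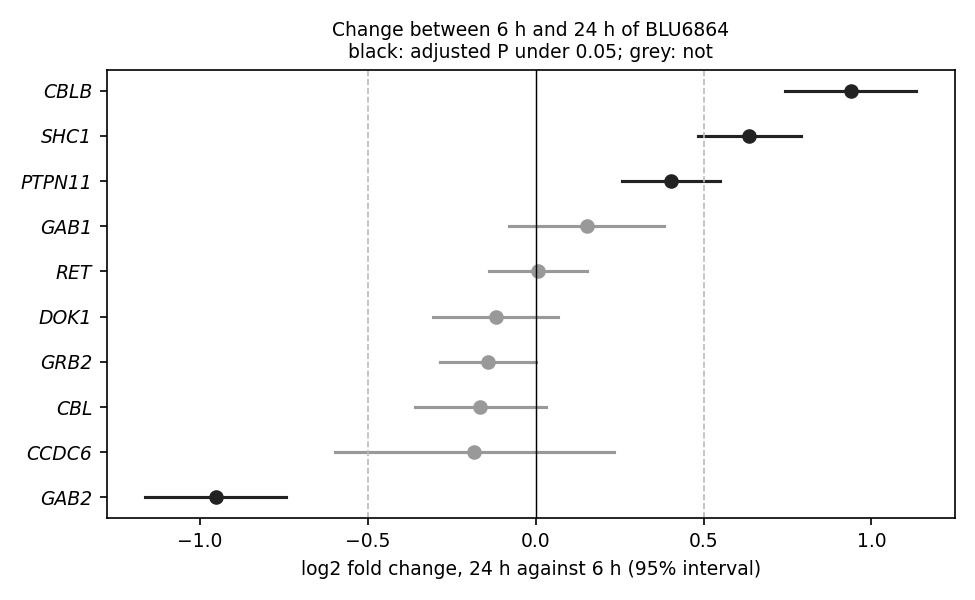
Log2 fold change of each gene at 24 h against 6 h with its 95% interval from edgeR, in black where the adjusted P was under 0.05 and grey where it was not, with dashed lines at the size cutoff of 0.5. CBLB, SHC1, and PTPN11 lie above 0 and GAB2 below, and the intervals of the other 6 genes include 0.

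**Figure D3:**
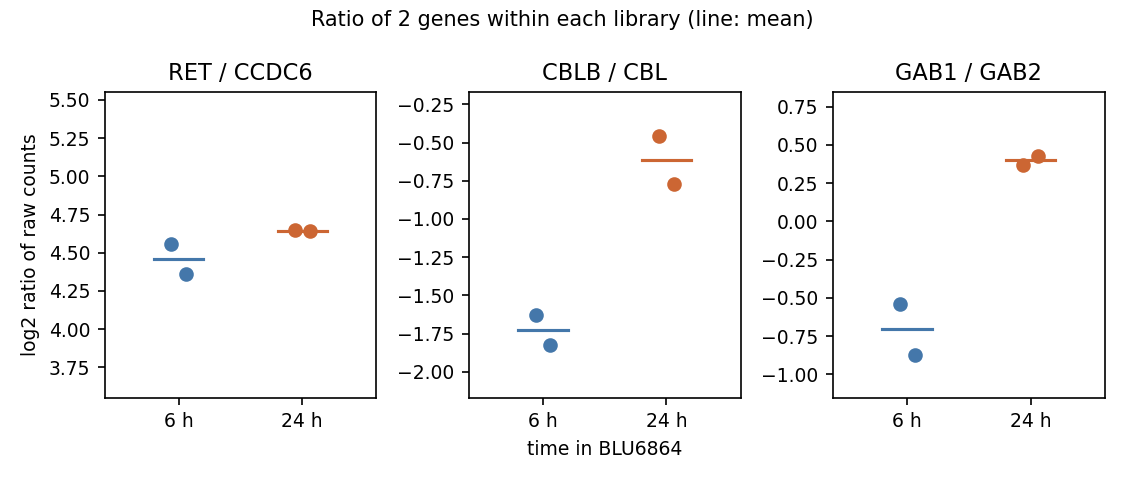
Log2 ratio of raw counts within each library for RET to CCDC6, CBLB to CBL, and GAB1 to GAB2, with 2 libraries at each time, a line at the mean, and the same span of 2 log2 units on each axis. The last 2 ratios are higher at 24 h by 1.11 and 1.10, and that of RET to CCDC6 by 0.19.

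Levels between genes were compared as normalized counts per kb of annotated exon, averaged over the 4 libraries. SHC1 was highest with 2329 per kb, followed by GRB2 with 842, PTPN11 with 395, DOK1 with 203, and RET with 163. The libraries of each of these genes lay above all libraries of the next. CBL had 83.8 per kb, GAB2 55.5, CBLB 37.2, and GAB1 32.1, and in this stretch the ranges of neighbouring genes over all 4 libraries overlapped. Within a time, the libraries of neighbouring genes in this stretch did not overlap, so these overlaps were between times alone. The mean of CBL was above that of GAB2 at 6 h (88.6 against 73.1) and at 24 h (79.1 against 37.8). CCDC6 was lowest with 8.60 per kb, below all libraries of GAB1. With the changes above, CBLB rose from 25.6 per kb, below GAB1 with 30.5, to 48.9 per kb, above GAB1 with 33.7. GAB2 fell from 73.1 to 37.8 per kb, so that it lay above CBLB at 6 h and below it at 24 h. Exon lengths are those of all annotated transcripts of a gene together, and the fusion transcript is shorter than either gene.

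The likeness of other genes to RET was measured as the Euclidean distance between log2 normalized counts centred on their own mean, over 4 libraries. Of 10746 other genes with a mean of at least 100 normalized counts, CRYZL1 was closest with a distance of 0.0139, followed by RPE with 0.0148 and SH3GL1 with 0.0151. Their log2 fold changes were 0.0088, -0.0067, and -0.00058. A distance under 0.1 was found for 569 genes, so this flat pattern was shared by many genes.

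The ligands and co-receptors of RET were also counted, from a list of 10 genes of which 5 had enough reads. By adjusted P, 3 of these were higher and 0 were lower, against 33.0% and 32.6% of all genes, with a median log2 fold change of 1.24. GFRA1, the co-receptor that presents GDNF to RET, rose from 189 and 201 normalized counts at 6 h to 982 and 929 at 24 h. This log2 fold change of 2.29 (SE 0.098, adjusted P = 3.83e-17), or 4.89-fold, was larger than that of any of the 10 genes above. GDF15, a stress cytokine that signals through GFRAL and RET, rose from 1400 and 1312 to 3776 and 3846 normalized counts, a log2 fold change of 1.49 (SE 0.073). GDNF itself, named after its values were seen, had 13 and 23 reads at 6 h against 44 in each 24 h library, with a log2 fold change of 1.24 (SE 0.30, adjusted P = 0.000691). GFRA2, GFRA4, and GFRAL had 0 reads in every library, and NRTN and GFRA3 were under the limit for testing.

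Of 23 other adaptor and docking genes, 17 were tested, of which 6 were higher and 3 lower (33.0% and 32.6% over all genes), with a median log2 fold change of 0.068. GAB3, a relative of GAB1 and GAB2, rose from 132 and 121 to 289 and 283 normalized counts, a log2 fold change of 1.18 (SE 0.13, adjusted P = 7.77e-09). SHC2, a relative of SHC1, rose with a log2 fold change of 0.84 (SE 0.081), from 763 and 720 to 1255 and 1404 normalized counts. GRB10, which binds RET and dampens growth factor signaling, rose by a log2 fold change of 0.55, and the adaptor SH2B2 fell by 0.50 on the log2 scale. Genes such as FRS2, DOK4, and CRK, with log2 fold changes of 0.077, 0.034, and 0.0023, did not pass.

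Of 13 effector and phosphatase genes, 11 were tested, and 7 were higher and 0 lower, beside 33.0% and 32.6% of all genes, with a median log2 fold change of 0.32. PTPRJ, a receptor phosphatase that can remove phosphate from RET, rose from 956 and 999 to 2033 and 2093 normalized counts, a log2 fold change of 1.08 (SE 0.072, adjusted P = 5.44e-13). PTPRF, another receptor phosphatase, had a log2 fold change of 0.73, SRC 0.70, and PLCG1 0.61. The RAS activator SOS1 and the phosphatase PTPN1 had log2 fold changes of -0.0034 and -0.0015 and did not pass. Of 6 partners of the CBL ligases, 4 were tested, of which 2 were higher and 0 lower, where all genes gave 33.0% and 32.6%. UBASH3B, a phosphatase that binds CBL proteins, rose from 954 and 959 to 2926 and 3034 normalized counts, a log2 fold change of 1.64 (SE 0.072, adjusted P = 7.04e-17), or 3.11-fold.

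All 15 of the other RET fusion partners were tested, with 6 higher and 6 lower (all genes 33.0% and 32.6%) and a median log2 fold change of -0.015. KIF5B, the partner most often joined to RET in lung cancer, fell from 6607 and 6098 to 3464 and 3168 normalized counts, a log2 fold change of -0.94 (SE 0.075, adjusted P = 1.91e-11). The other 14 partners lay between -0.41 in PCM1 and 0.41 in TRIM27. Over these 5 lists together, 24 of 52 tested genes rose and 9 fell, against 33.0% and 32.6% of all genes, and their median log2 fold change was 0.17.

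**Figure D4:**
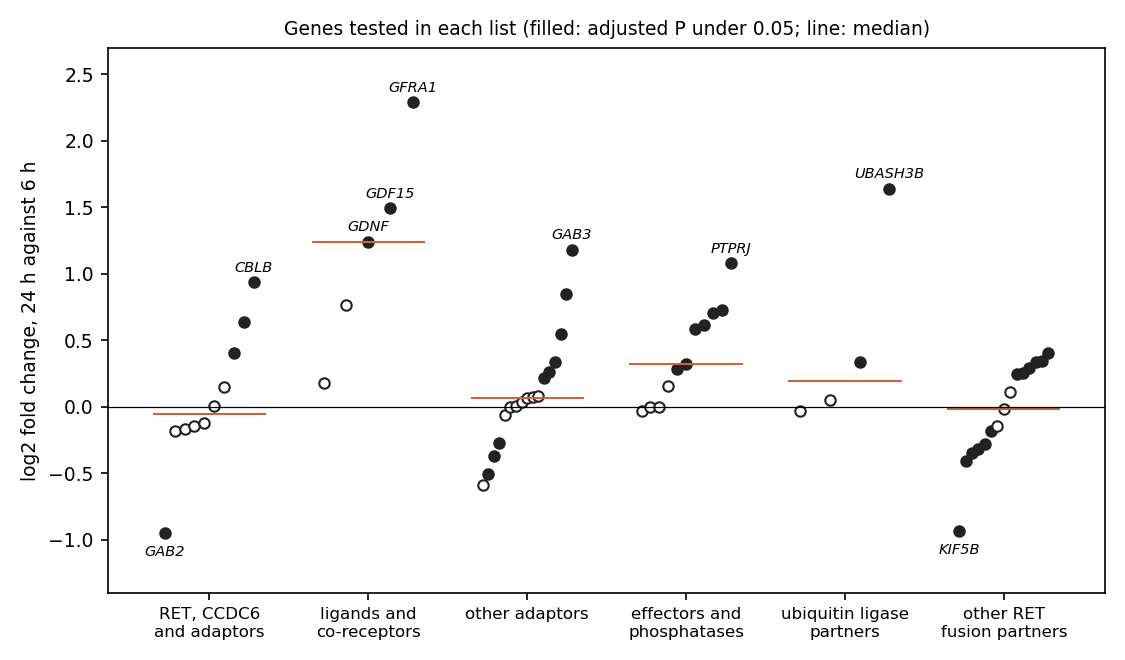
Log2 fold change at 24 h against 6 h of every gene tested in 6 lists, filled where the adjusted P was under 0.05 and open where it was not, with a line at the median of each list and names at absolute changes over 0.9. The ligand and co-receptor list lies wholly above 0, GFRA1 is highest at 2.29, and GAB2 and KIF5B are lowest.

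**Figure D5:**
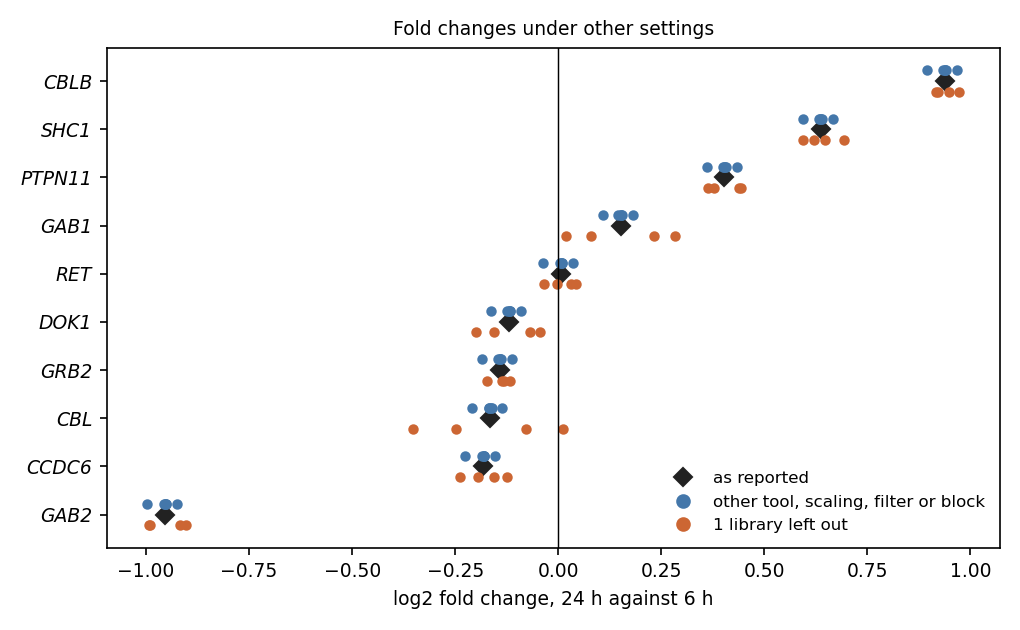
Log2 fold change of each of the 10 genes as reported (black diamonds), with another tool, scaling, filter, or the replicate block (blue), and with 1 library left out (orange). CBLB, SHC1, PTPN11, and GAB2 keep their distance from 0, while CBL spreads from -0.35 to 0.013 with 1 library left out.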

How the data were processed

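RNA of 4 TPC1 libraries was measured. The authors aligned reads with STAR (2.3 in the submitters' processing notes, a later version in the methods) to hg19 and deposited raw counts per gene. The methods name a stranded library kit and the labels a TruSeq RNA protocol, and the counting program and its strand setting are not given in the sources used here, so counts of overlapping genes are uncertain. The authors also deposited a normalized signal, the count divided by a DESeq2 size factor, its mean, and their own comparison (log2 fold change and its error, a Wald score, p-values). These columns were not used. The labels give shorter single-end reads than the methods.

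The tests used edgeR 4.0.16 (R 4.3.3) on raw counts, with filterByExpr, TMM, and the quasi-likelihood test with time as the only factor, over the whole table. Intervals are 95% and use the moderated degrees of freedom of that test. Adjusted P values are from this test, or from DESeq2 1.42.0 where named. Exon lengths came from GENCODE v44 by Ensembl identifier (95.5% of genes) and only as lengths. Gene positions are those of the table. Promoter letters came from RefSeq on GRCh38.p14, and the builds were not mixed. All 10 members were named, with up to 4 genes of each further list past both cutoffs of the methods and with a mean of at least 50 normalized counts, and the 3 genes most like RET. Others were named after their values were seen. One marker gene is not reported here. The members and lists were chosen with earlier results of these data known. Data were also simulated with 12756 genes, of which 97 changed by 0.5 and 100 by 1 on the log2 scale. There edgeR recovered 83.5% of changes of 0.5 and 92.0% of changes of 1, and 2.26% of its calls were false. In the data 65.6% of genes were called, a far larger share, so these rates need not hold for the data. Plots were drawn with matplotlib 3.10.9.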

Additional observations from a re-analysis of the deposited data

How the results depend on the processing

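The rises of CBLB, SHC1, and PTPN11 and the fall of GAB2 stayed past the threshold under DESeq2, upper quartile scaling, scaling to library size alone, the replicate block, no filter, a minimum of 10 counts per library, and each library left out. Leaving 1 library in a group assumes that it varies like the other group. The number of higher members was 3 in all of these fits, and 2 with the cutoffs of the methods. The number of lower members, 1 as reported, was 2 with library size alone (GAB2 and GRB2) and 3 with the replicate block. Of all 12876 genes tested, 4247 were higher and 4196 lower as reported. With library size alone 3874 were higher and 4542 lower, and with the block 4524 and 4448. The lower members thus stayed under the share over all genes in these 3 fits. Without 24 h library 2, CBL had a log2 fold change of -0.35. With library size alone, RET had a log2 fold change of -0.036 and GRB2 of -0.18 (edgeR adjusted P = 0.0242). That scaling also moved the median of all genes from 0.0029 to -0.040. With a library left out, RET lay between -0.036 and 0.044 and CBL between -0.35 and 0.013. The cause of these moves was not tested. Neither the labels nor the methods say what the replicate numbers mark, and deviations from the group means correlated at 0.0691 across genes between libraries sharing a number. With the number as a block, GRB2 (-0.14, edgeR adjusted P = 0.0351) and CBL (-0.17, edgeR adjusted P = 0.0285) also passed. CCDC6, with 58 to 72 reads per library, is the member most limited by depth. With 2 libraries per time, outliers were not tested.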

Other observations

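The genes on either side of RET and CCDC6 in the table were read after the values of the pair were known. On the hg19 positions of chromosome 10, BMS1, the gene before RET, had between 836 and 1159 reads and a log2 fold change of 0.40 (SE 0.081, adjusted P = 0.000112). CSGALNACT2, the gene after RET, had between 1454 and 1988 reads and a log2 fold change of -0.43 (SE 0.072, adjusted P = 1.12e-05). The neighbours of RET thus moved in opposite directions while RET had a log2 fold change of 0.0068. SLC16A9 and C10orf40, the genes next to CCDC6 on either side, had 0 reads in every library, and ANK3, the next one after, had between 16 and 47 with a log2 fold change of 0.86 (adjusted P = 0.0120). CDK1, which follows ANK3, had a log2 fold change of -4.47 (adjusted P = 1.99e-24).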
